A study of Mus musculus with 44 samples.

Results

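The proteasome is the protease that degrades proteins tagged with ubiquitin, and its mRNA was followed here through the skeletal stem cell lineage of the mouse. All genes whose symbol was Psma, Psmb, Psmc, Psmd, Psme, Psmf or Psmg followed by a number were taken, which gave 49 of the 46831 genes in the count table. The study sorted 8 skeletal populations from long bones of C57Bl6 mice at postnatal day 3 and asked how the RNA modification m6A (N6-methyladenosine) is laid down along the lineage and what follows when Mettl3, the enzyme that writes it, is deleted. For each population an m6A immunoprecipitate (IP) and its input RNA were sequenced in 2 libraries each, 44 libraries in 22 groups. The skeletal stem cell (SSC), pBCSP (pre-BCSP in the labels) and BCSP populations are called stem and progenitor populations below, and PCP (pro-chondrogenic progenitors), THY, BLSP, 6C3 and HEC are called downstream populations. Wild-type (WT) libraries cover all 8 populations. The Mettl3cko libraries came from Mettl3 fl/fl;Col2a1-Cre mice and cover SSC, pBCSP and BCSP, and their controls were Mettl3 fl/fl mice without Cre. Whether the mice that gave the other WT populations carried the floxed allele is not given in the sources used here. The Cre is driven by Col2a1, a collagen promoter active in cartilage and in skeletal stem and progenitor cells, so deletion is limited to cells with a history of that promoter. No group was treated. The deletion is named in the sample titles alone, while the genotype entry says wild type for all 44 samples, and these are therefore the libraries labelled Mettl3cko. Whether the 2 libraries of a group came from separate animals or pools is not given in the labels, so p-values measure the spread between these samples.

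The proteasome consists of a barrel, the 20S core, and caps that open it. The core stacks rings of alpha subunits (Psma genes) and beta subunits (Psmb genes), and Psmb5, Psmb6 and Psmb7 encode the subunits that cut peptide bonds. After interferon signalling these are replaced by Psmb8, Psmb9 and Psmb10, giving the immunoproteasome, which favours peptides for antigen presentation. The 19S cap holds a ring of ATPases (Psmc genes) that unfolds substrates and non-ATPase subunits (Psmd genes) that bind and remove ubiquitin. Psme genes encode alternative activators, Psmf1 an inhibitor, and Psmg1 to Psmg4, Psmd5, Psmd9 and Psmd10 chaperones that help to build the core or the base of the cap. Bone and cartilage cells depend on the proteasome to turn over regulators of their differentiation.

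Input libraries held 19795666 to 44046651 counts in WT and 30050178 to 35325482 in Mettl3cko, and IP libraries 16480027 to 35856651 and 22056571 to 33126857. The 49 genes took 0.394% to 0.580% of the counts of a WT input library. The log2 values of the 2 replicates correlated across genes at 0.911 to 0.969 for WT input and 0.786 to 0.896 for WT IP, but at 0.497 to 0.579 for Mettl3cko IP, which makes the last the least precise values. The 8 skeletal and cartilage marker genes summed to 73447 to 206320 CPM (counts scaled to a common library size) in downstream and 81749 to 99485 CPM in stem and progenitor WT libraries. The 9 blood markers summed to 23.0 to 101 CPM against 15.7 to 25.2 CPM, and the 5 endothelial markers to 1.12 to 86.3 CPM against 1.08 to 20.7 CPM. The downstream blood sum was mostly Hba-a1 and Hbb-bs, the globins of red cells, at 16.4 to 39.4 and 7.97 to 21.4 CPM by population, against 0.578 to 1.46 and 0.0317 to 0.684 CPM in stem and progenitor populations. Of the white cell markers, Ptprc was at 0 in SSC, pBCSP and BCSP, while Cd68 was at 6.36 to 13.6 CPM there and at 3.19 to 8.72 CPM downstream. Thy1 was highest in THY, BLSP and PCP, and Enpep, the gene of the 6C3 antigen, was highest in HEC and 6C3. The Mettl3 count was 369 to 618 in WT and 458 to 759 in Mettl3cko input of the 3 stem and progenitor populations, a mean log2 difference of 0.25 that was not called (edgeR, adjusted p = 0.362). A count over the whole gene does not test the loss of single exons, so it does not check the labels.

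The level of each subunit was first compared per transcript length. Over the 16 WT input libraries Psmb6 had the highest mean, 429 RPKM (CPM per kilobase of transcript), followed by Psma7 at 334 RPKM and Psmb2 at 272 RPKM. Psmb7, which encodes the trypsin-like subunit, had 21.2 RPKM, the lowest of the constitutive beta subunits. The median subunit had 74.4 RPKM in the alpha ring, 93.7 RPKM in the constitutive beta ring, 90.2 RPKM among the ATPases and 72.2 RPKM among the non-ATPase subunits of the cap. The chaperones of the base had a median of 13.5 RPKM and those of the core 18.1 RPKM. The immunoproteasome and thymoproteasome subunits had a median of 0.977 RPKM. The ranges overlapped, since the chaperones Psmg2 and Psmd5 at 22.7 and 22.1 RPKM lay above Psmb7, and Psma8 of the alpha ring had 1.42 RPKM. Psma3, Psmb3, Psma5, Psmc1, Psmd11, Psma4, Psmb5 and Psmd2 have between 1 and 4 near-identical copies elsewhere in the genome, and Psme2 and Psme2b are near copies of each other, so part of their reads could be split or lost by the counting.

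The mRNA of 10 of the 15 core subunits was higher in stem and progenitor than in downstream populations, and that of the inducible Psmb8 and Psmb9 was lower. In WT input, 20 of the 49 genes were higher in SSC, pBCSP and BCSP (6 libraries) than in PCP, THY, BLSP, 6C3 and HEC (10 libraries), and 5 were lower, at an adjusted p under 0.05 (edgeR, Benjamini-Hochberg over 20060 genes). The background was high, since 23.1% of all genes were called higher and 28.3% lower, so that the 25 calls together lay near the share of all genes (51.4%), and what differed was their split. The median log2 difference was 0.20 over the 49 genes and -0.11 over all genes, with 36 of the 49 above 0 and 13 below. All coding genes had medians of 0.21, 0.10 and 0.08 for transcripts of 500 to 1000, to 1500 and to 2000 bases, where 36 of the members lie, and of -0.06, -0.25 and -0.45 for those to 3000, to 5000 and beyond. Against genes of like length the members' median is thus nearer to the background than against all genes. In the 20S core Psma7 was lower. In the 19S cap, 5 of 17 were higher and Psmd13 was lower, with a median log2 difference of 0.20 against 0.38 for the core. Of the core chaperones, 3 of 4 were higher (median 0.56), and of the base chaperones 2 of 3 (median 0.47). Of the inducible Psmb8, Psmb9 and Psmb10 and the thymus subunit Psmb11, listed together, 0 were higher and 2 lower. A test over all 8 populations called 20 of the 49 genes, where 40.1% of all genes were called. With bulk RNA a larger number of cells of a type and more RNA per cell cannot be told apart. The libraries of these sets differed in other ways too. Genes detected ranged from 19385 to 20747 in stem and progenitor and from 20588 to 26442 in downstream populations. Entries under names that no single gene owned took 0.0247% to 0.0596% of WT input counts against 0.186% to 0.390% downstream. The part of these differences in the mRNA comparison was not tested.

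**Figure D1:**
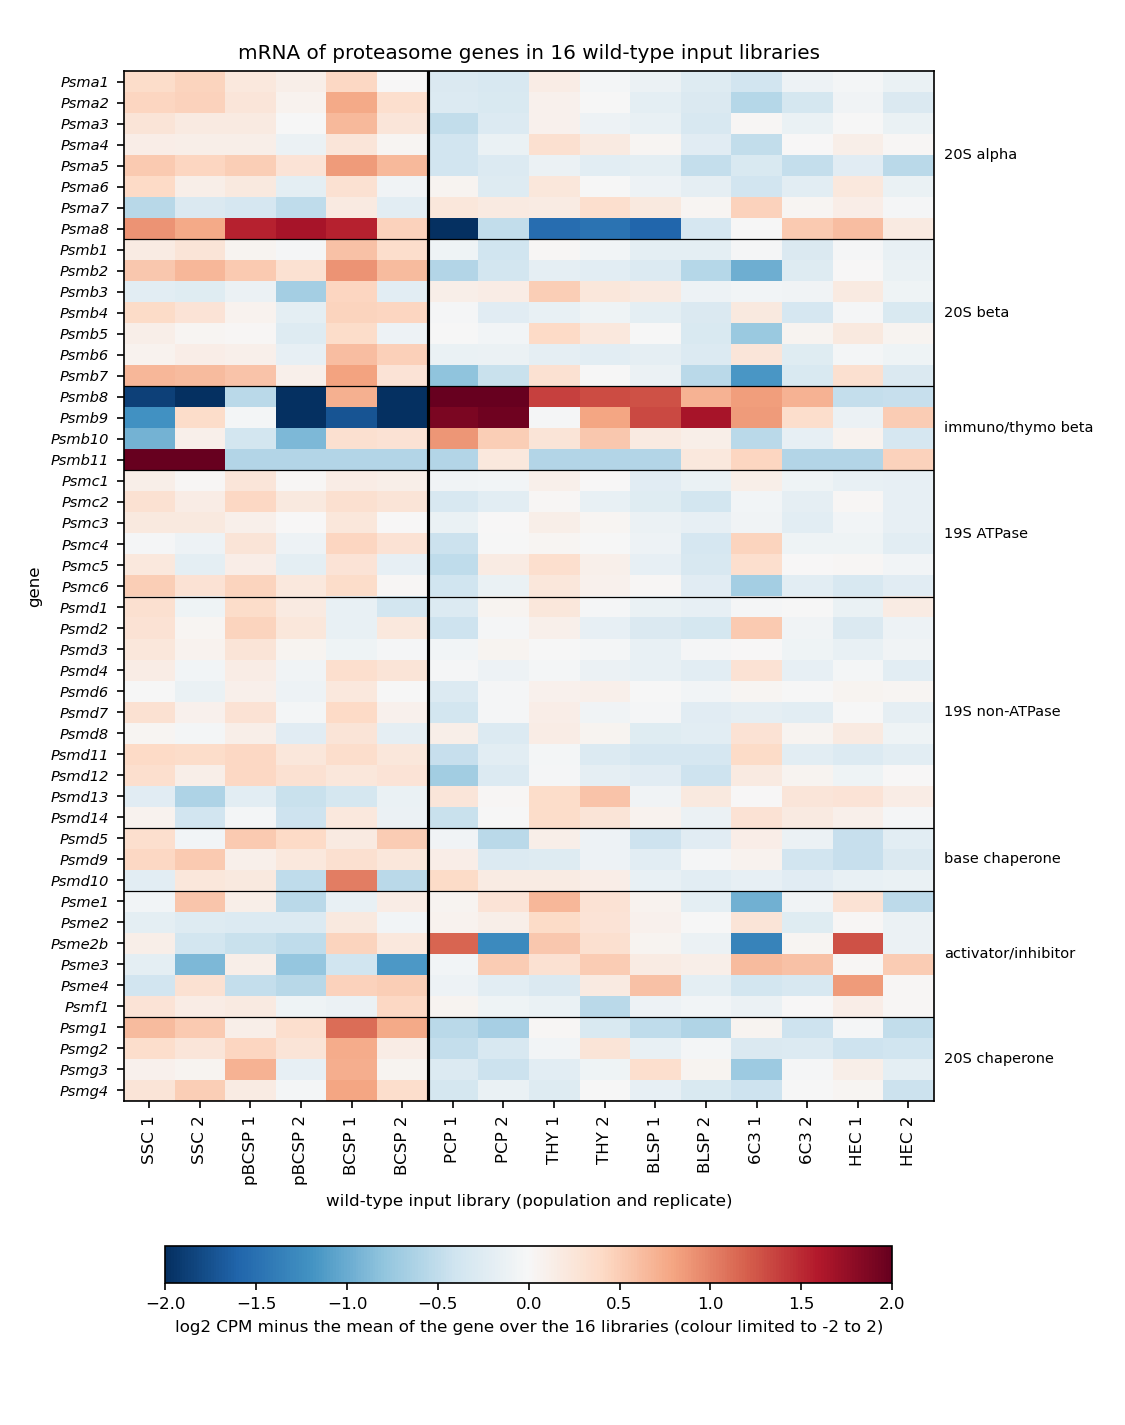
mRNA of the 49 proteasome genes in the 16 WT input libraries, given as log2 CPM minus the mean of each gene over the libraries (colour, limited to -2 to 2), with genes in rows by role and libraries in columns. The 6 stem and progenitor libraries lie left of the thick line. There Psma5, Psmb2 and Psmg1 are above their mean in every library and Psmd13 is below it. Psmb8 is above its mean in BCSP replicate 1 and in each PCP, THY, BLSP and 6C3 library, and below it in HEC.

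Psma5, a subunit of the alpha ring, had 92.8, 109 and 138 CPM (lowest, median and highest) in the stem and progenitor libraries and 53.0, 62.6 and 70.4 CPM in the downstream libraries. The groups did not overlap, and the log2 difference was 0.86 ± 0.096 (SE, adjusted p = 1.95e-06, edgeR). Psmb2, a non-catalytic beta subunit, had 272, 329 and 407 CPM against 112, 183 and 219 CPM, again without overlap (log2 difference 0.94 ± 0.11, adjusted p = 4.22e-06, edgeR). Psmg1, which pairs with Psmg2 to assemble the alpha ring, had 17.4, 24.1 and 35.1 CPM against 10.2, 11.8 and 16.8 CPM (log2 difference 0.93 ± 0.13, adjusted p = 2.02e-05, edgeR). Psmc2, an ATPase of the cap, had 118, 129 and 142 CPM against 82.3, 94.6 and 109 CPM. Every stem and progenitor library lay above every downstream library for these 4 of the 49 genes. Of all genes 7.92% shared this arrangement, so the share of the members was near the background. Psma2 and Psmb7 were also among the members with the lowest p, at log2 differences of 0.61 and 0.80, although the Psmb7 libraries overlapped at 24.7 to 40.2 CPM against 10.3 to 28.7 CPM and its exons share 405 bases with Nek6.

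The 250 bases before the transcription start were read for 3 of the 4 genes whose libraries did not overlap, since Psmb2 had no listed promoter. They are RefSeq windows on GRCm38.p6, printed 5′ to 3′ on the strand of the gene, at chr3:108256676-108256925 (+) for Psma5, chr5:21785025-21785274 (+) for Psmc2 and chr16:95990961-95991210 (-) for Psmg1. Capitals mark TGANNNNGC, a loose pattern that includes the antioxidant response element. Nfe2l1 and Nfe2l2, factors that drive proteasome genes, bind that element. The pattern leaves more bases open than the element does, so a match need not be the element.
Psma5: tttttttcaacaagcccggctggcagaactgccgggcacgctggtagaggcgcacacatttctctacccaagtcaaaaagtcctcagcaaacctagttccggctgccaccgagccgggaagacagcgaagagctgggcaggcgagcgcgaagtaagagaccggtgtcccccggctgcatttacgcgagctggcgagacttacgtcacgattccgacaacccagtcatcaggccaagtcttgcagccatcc
Psmc2: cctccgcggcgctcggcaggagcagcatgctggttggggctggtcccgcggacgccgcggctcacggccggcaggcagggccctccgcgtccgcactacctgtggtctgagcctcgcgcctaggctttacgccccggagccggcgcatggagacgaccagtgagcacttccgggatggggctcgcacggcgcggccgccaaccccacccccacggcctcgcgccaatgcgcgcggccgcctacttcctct
Psmg1: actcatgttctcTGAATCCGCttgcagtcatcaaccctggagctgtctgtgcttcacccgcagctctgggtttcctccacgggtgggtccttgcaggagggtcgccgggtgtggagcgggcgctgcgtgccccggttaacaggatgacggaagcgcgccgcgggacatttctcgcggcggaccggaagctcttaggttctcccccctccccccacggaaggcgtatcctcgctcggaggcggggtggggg
The Psmg1 window held 1 match, which overlaps by 4 bases with a match to the gamma interferon activated site TTCNNNGAA, and the Psma5 and Psmc2 windows held neither. Searched on both strands, TGANNNNGC was found in 14 of the 41 members with a listed promoter (34.1%) and in 35.1% of 27025 promoters of the same length. TTCNNNGAA was found in 2 of 41 members (4.88%) against 7.18% of all, and the interferon stimulated response element in 3 of 41 (7.32%) against 3.04%. The share of TGANNNNGC was close to that of all promoters, the last rests on 3 promoters, and a match is not a bound site.

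Among the members that were lower in stem and progenitor populations, Psmd13, a scaffold subunit of the cap, had 44.4, 55.4 and 61.9 CPM against 64.6, 79.0 and 100.5 CPM. It was the only member without overlap in this direction, which 8.6% of all genes shared. Its log2 difference was -0.53 ± 0.11 (adjusted p = 0.000611, edgeR). Its exons share 342 bases with Sirt3. Psme3, which encodes the nuclear activator PA28 gamma, had 37.6, 55.7 and 90.0 CPM against 79.8, 110 and 129 CPM, with the highest stem and progenitor library inside the downstream range (log2 difference -0.84 ± 0.17, adjusted p = 0.000668, edgeR). Psma7, the most abundant alpha subunit, went against its ring with 204, 240 and 339 CPM against 295, 336 and 413 CPM (log2 difference -0.46 ± 0.11, adjusted p = 0.00189, edgeR). Psma8, which replaces Psma7 in the core of germ cells, was low but went the other way, with 2.45, 4.26 and 5.61 CPM against 0.213, 1.30 and 2.73 CPM (log2 difference 1.80 ± 0.34, adjusted p = 0.000371, edgeR).

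The catalytic subunits differed between the constitutive and the inducible set. Psmb8 had 0.062, 0.223 and 1.70 CPM in stem and progenitor libraries and 0.712, 2.199 and 5.62 CPM downstream (log2 difference -2.26 ± 0.53, adjusted p = 0.00221, edgeR). The downstream HEC libraries had 0.712 and 0.721 CPM of Psmb8, inside the stem and progenitor range. Psmb9 had 0, 0.248 and 1.02 CPM against 0.712, 1.41 and 3.16 CPM (log2 difference -2.26 ± 0.60, adjusted p = 0.00488, edgeR). Both ranges overlapped between the groups, and both genes share exonic bases with a neighbour, Psmb8 with Gm20496 and Psmb9 with Tap1, which encodes a peptide transporter of antigen presentation. Psmb10, the third inducible subunit, was more abundant at 4.57, 8.13 and 11.1 CPM against 6.02, 9.80 and 16.2 CPM and was not called (log2 difference -0.37, adjusted p = 0.0981, edgeR). Of their constitutive partners Psmb6 was higher in stem and progenitor populations (log2 difference 0.33 ± 0.096, adjusted p = 0.0098, edgeR), as was Psmb7, while Psmb5 was at 0.05 and not called (adjusted p = 0.809). Psmb11, the beta subunit of the thymus, had 10 and 12 input counts and 19 and 9 IP counts in the WT SSC libraries and at most 2 counts in any other WT input library. Other WT IP libraries held at most 3 counts, except PCP replicate 2 with 12.

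Written as a share of each catalytic pair per transcript length, Psmb8 made up 0.0973%, 0.276% and 1.70% (lowest, median and highest) of Psmb8 and Psmb5 in stem and progenitor libraries and 0.809%, 2.74% and 7.10% downstream. Psmb10 made up 9.94%, 17.01% and 25.5% of Psmb10 and Psmb7 against 22.1%, 31.3% and 52.3%. Psmb9 made up 0%, 0.0362% and 0.163% of Psmb9 and Psmb6 against 0.128%, 0.246% and 0.597%. PCP held the highest share in each pair, and the groups overlapped in each pair. The blood marker sum was also higher downstream, mostly by the globins as given above, and PCP had the highest endothelial sum, whose part in the inducible subunits was not tested. The PCP libraries were also left out, a choice made after seeing the data. Psmb8 and Psmb9 were then lower in stem and progenitor populations, at log2 differences of -1.94 (adjusted p = 0.0135, edgeR) and -2.01 (adjusted p = 0.0209, edgeR). This fit does not test the part of blood or endothelial cells.

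**Figure D2:**
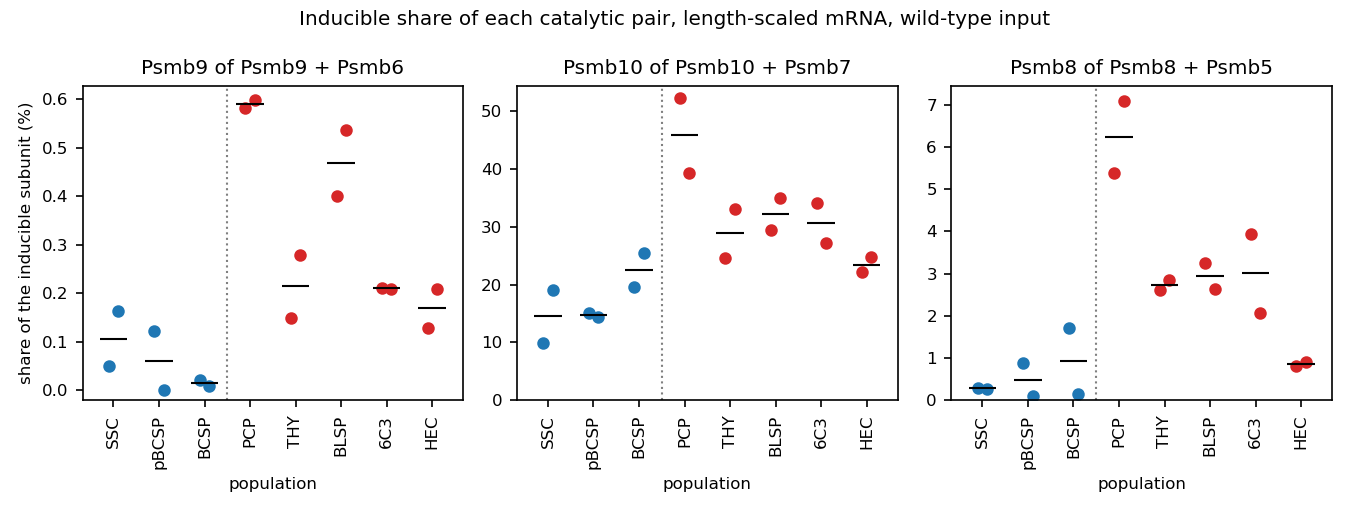
Share of the inducible subunit in each catalytic pair (y axis, % of the summed RPKM of the pair) in the 16 WT input libraries by population (x axis), with points for libraries, bars for the mean of 2 and a dotted line between stem and progenitor (blue) and downstream (red) populations. The y axes differ between panels. PCP is highest in each panel, and the Psmb10 share reaches 52.3% while the Psmb9 share stays at or under 0.597%.

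The remaining activators and regulators differed less. Psme1 and Psme2, which form the interferon-inducible activator PA28, had log2 differences of 0.02 and -0.23 (adjusted p = 0.96 and 0.0689, edgeR). Psme4, the activator PA200, had -0.05 (adjusted p = 0.841), and Psmd14, the deubiquitinase of the cap, had -0.17 (adjusted p = 0.23). Of the 24 tested genes listed as further proteasome and ubiquitin genes, 7 were higher and 8 lower, with a median of -0.07, which is close to the 23.1% and 28.3% of all genes. Rps27a, one of the genes that encode ubiquitin fused to a ribosomal protein, was 1.15 higher on the log2 scale, Ddi2, the protease that activates Nfe2l1, was 0.89 higher, and the ubiquitin gene Ubb was 0.82 higher. Akirin2, which carries proteasomes into the nucleus, fell by 1.21, the shuttle factor Ubqln2 fell by 1.14 and the transcription factor Nfe2l2 fell by 1.06 in stem and progenitor populations. Of the 12 interferon and antigen presentation genes, 2 were higher and 4 lower (median 0.08), and 6 of 12 is near the 51.4% of all genes called. The interferon receptor chain Ifngr2 was at -0.997, H2-D1, a class I presenting molecule, at -0.97 and Tap1 at -0.68, while the other chain Ifngr1 was at 0.57.

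Transcript length and base composition were set beside these differences. Over 15399 coding genes Spearman's rho of the log2 difference with transcript length was -0.179, and over the 49 members it was 0.011. With GC content it was 0.056 over all coding genes and -0.376 over the members. These are descriptions across genes of the same libraries.

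The share of each mRNA recovered in the m6A IP was then compared with its input. Such a ratio measures an mRNA against the rest of its library, so that a ratio under 1 does not say that an mRNA lacks m6A. The core and the cap of the proteasome lay on opposite sides. Averaged over the 8 WT populations, 20 of the 49 genes were above and 17 below their input (edgeR, adjusted p under 0.05), where 17.2% of 25365 genes were above and 25.2% below. In the 20S core 14 of 15 subunits were above and none below, with a median log2 ratio of 0.58. Psma8, the subunit of the core that was not called, had -0.34 ± 0.45 (SE). In the 19S cap 0 of 17 were above and 14 below, with a median of -0.67, and Psmc6, Psmd8 and Psmd14 had 0.06, -0.04 and -0.08. The inducible beta subunits were not called in either direction, with Psmb8 at -0.25, Psmb9 at -0.05 and Psmb10 at -0.09. Of the core chaperones 2 of 4 were above. The median of the members was 0.06 and that of all genes 0.004. These counts were 20 and 17 again when the BCSP libraries were left out, whose IP gave the fewest calls.

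**Figure D3:**
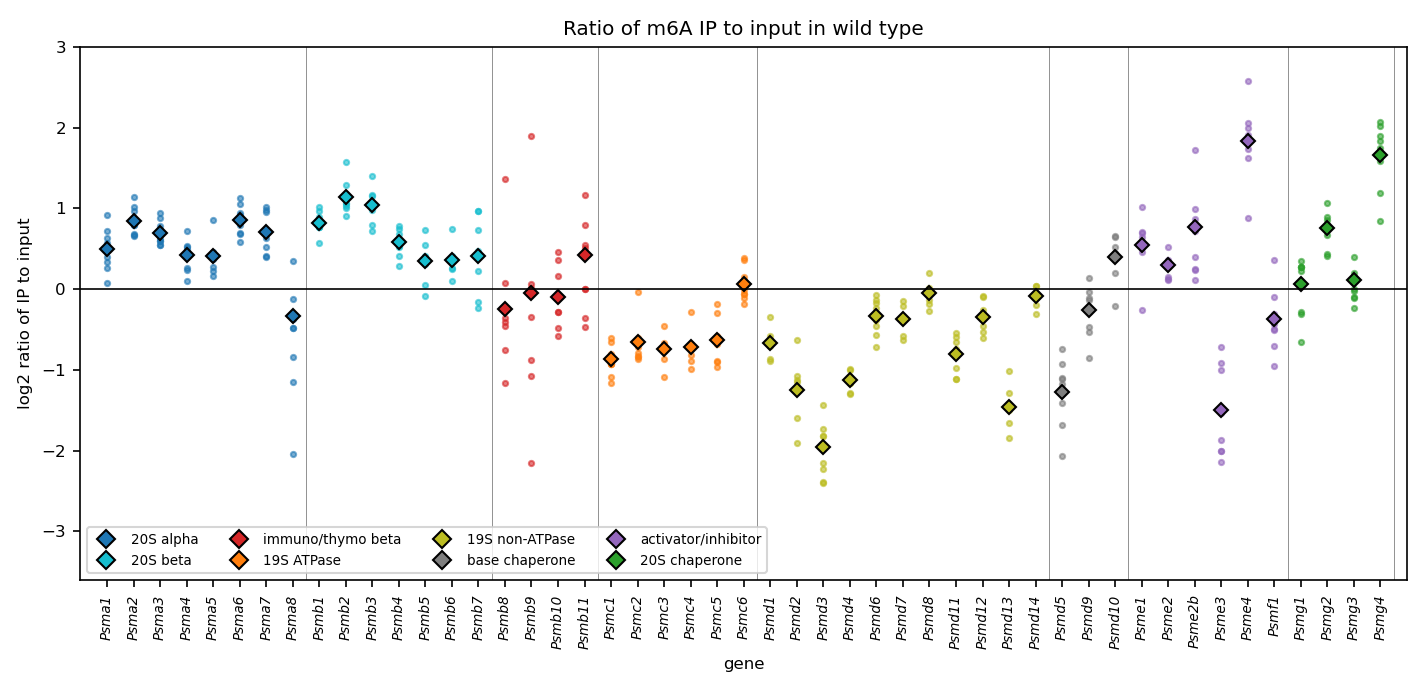
log2 ratio of m6A IP to input (y axis) for the 49 proteasome genes (x axis) in WT, coloured by role, with a diamond for the mean of the 8 populations and small points for the single populations. Subunits of the 20S core other than Psma8 have means above 0 and those of the 19S cap other than Psmc6 have means below 0.

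The genes with the lowest p on either side came from several parts of the complex. Psmd3, a scaffold subunit of the cap, had the lowest ratio, with 11.2 to 36.9 CPM in IP and 69.1 to 94.3 CPM in input. Its log2 ratio was -2.83, -2.01 and -0.96 (lowest, median and highest of 16 pairs of libraries), below 0 in every pair. The mean was -1.96 ± 0.12 (SE, adjusted p = 6.58e-14, edgeR). A pair here is the IP and the input library with the same replicate number, a matching that the labels do not state. Psme4 had the highest, with 32.5 to 82.2 CPM in IP and 11.5 to 30.7 CPM in input and log2 ratios of 0.50, 1.88 and 2.62 (mean 1.83 ± 0.12, adjusted p = 9.23e-14, edgeR). Psmg4, a chaperone of the alpha ring, had 23.96 to 45.9 CPM in IP and 8.02 to 18.4 CPM in input (mean log2 ratio 1.66 ± 0.11, adjusted p = 3.3e-13, edgeR). Psmb2 had 307 to 841 CPM in IP and 116 to 409 CPM in input (mean log2 ratio 1.14 ± 0.078, adjusted p = 3.94e-13, edgeR). For Psmd3, Psme4 and Psmg4 the IP and input ranges did not overlap, and how many of all genes share this was not counted.

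On the low side, Psmd2, Psmd13, Psmd5 and Psmd4 had mean log2 ratios of -1.26, -1.46, -1.28 and -1.13, each below 0 in 16 of 16 pairs. Psmd4 encodes a ubiquitin receptor of the cap and Psmd5 a chaperone of its base. On the high side, the beta subunit Psmb3 had 1.04 and Psma2 0.84, each above 0 in 16 of 16 pairs. The share of all genes with every pair on the same side of 0 was not counted. Among the activators, Psme1 was at 0.55 and Psme2 at 0.30, both above their input, while Psme3 was at -1.50 ± 0.15, with 14.3 to 46.6 CPM in IP against 37.8 to 134 CPM in input. The catalytic subunits Psmb5, Psmb6 and Psmb7 were above their input by 0.34, 0.36 and 0.41.

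Single populations were counted by another rule than the mean, so their counts cannot be compared with those of the mean. At the threshold the study used for m6A targets (log2 ratio beyond 1 and unadjusted p under 0.05) SSC had 3 members above and 6 below (10.4% and 13.9% of all genes), pBCSP 7 and 4 (12% and 14.8%) and BCSP 0 and 3 (6.67% and 11.7%). Downstream these were 6 and 6 in PCP (10.6% and 14.5%), 5 and 4 in THY (12.4% and 15%), 3 and 5 in BLSP (12.4% and 14.8%), 9 and 5 in 6C3 (14.5% and 17%), and 5 and 6 in HEC (13.5% and 14.2%). The share of members below input was under that of all genes in each population, and the share above input lay on either side of it. These shares rest on counts of 0 to 9 members. Psmd3 was below at this threshold in 8 of 8 populations and Psmd13 in 7, and Psme4, Psmg4 and Psmb2 were above in 7. Psmd2, Psmd5 and Psme3 were below in 6.

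Psmd3, Psmd13 and Psme3, which had the lowest ratios, each carry the core of the m6A motif in the 3′ untranslated region. Psma2, Psma3, Psma6 and Psmb1, which were above their input, carry it there too, and Psmd2, which was below, does not. The windows below are printed 5′ to 3′ from the GENCODE transcript with GGACT in capitals, 293 bases after the stop codon in Psmd3, 301 in Psmd13 and 20 and 474 in Psme3.
Psmd3: tagggtgtGGACTagggcctg
Psmd13: acctgagtGGACTttgtccag
Psme3: gggccaggGGACTttgtgagt
Psme3: tttctgtgGGACTttgggtcc
The transcript of Psmd3 held 2 copies of GGACT, that of Psmd13 3 and that of Psme3 4. Psmg4, whose ratio was among the highest, held 0 in 555 bases, and Psme4 held 5 in 6491 bases. Over the 49 members Spearman's rho of the log2 ratio with GGACT copies per kilobase was -0.238, and over 17355 coding genes -0.126. Ratios were not higher where copies were denser, and a motif is not a modified site.

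The ratio moved with transcript length in these libraries. The median log2 ratio of all coding genes was 1.40 for transcripts up to 500 bases, 0.95 from there to 1000, 0.07 to 1500, -0.44 to 2000, -0.67 to 3000, -0.45 to 5000 and 0.25 beyond. Over the members rho with length was -0.499, against -0.00234 over all coding genes, for which the relation is not monotonic. The median transcript had 1220 bases in the alpha ring and 899 in the beta ring, against 1904 among the non-ATPase subunits of the cap. Between 1000 and 2000 bases, 7 of 8 core subunits had a ratio above 0 (median 0.458) and 0 of 12 cap subunits had (median -0.643), against 1633 of 3836 coding genes (median -0.211). This window pools the classes with medians of 0.07 and -0.44, and most of its core subunits lie in the shorter class and most cap subunits in the longer. From 500 to 1000 bases the 9 members had a median of 0.71, under the 0.95 of all coding genes. Psmb5 and Psmb6 lie in that class, at 0.34 and 0.36. Psme4 lay far above, and Psmd3 far below, the median of its length class.

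**Figure D4:**
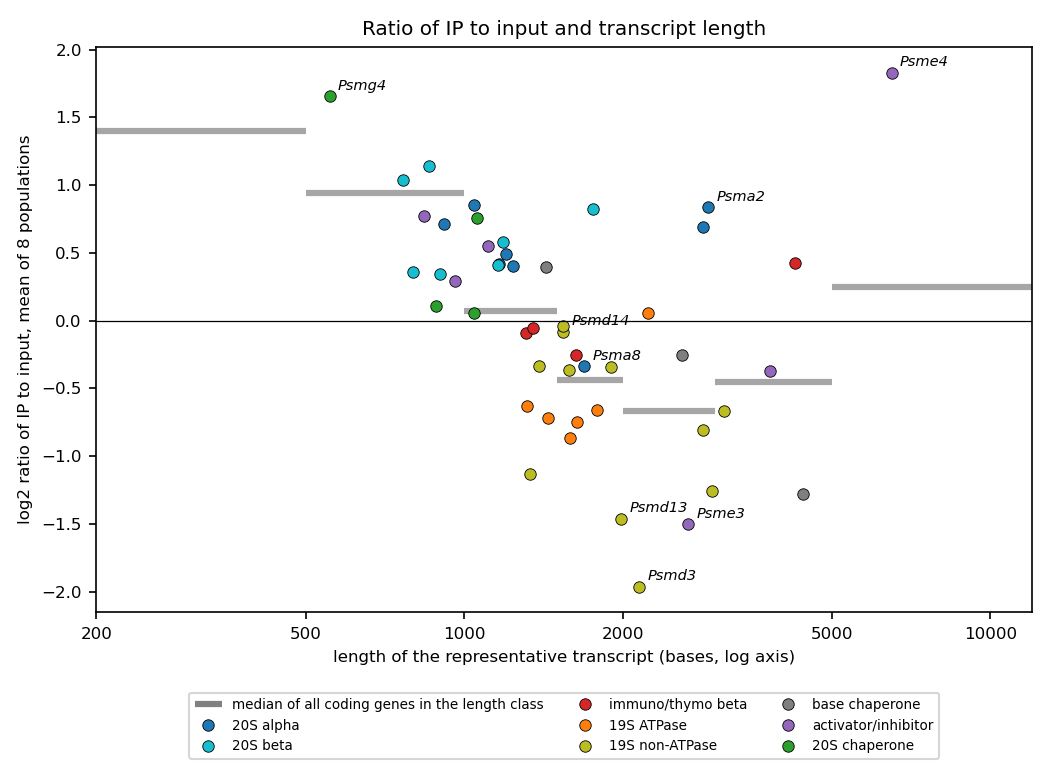
Mean log2 IP-to-input ratio of the 8 WT populations (y axis) against the length of the representative transcript (x axis, log scale, bases), with 1 point per proteasome gene coloured by role. Grey bars give the median of all coding genes in each length class, from 1.40 in the shortest to -0.67 between 2000 and 3000 bases, and at 1000 to 2000 bases core subunits lie above most cap subunits.

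Between stem and progenitor and downstream populations the ratio differed for Psme3 only among the 49 members, where 3.06% of all genes were higher and 1.77% lower. Its log2 ratio was -1.38 and -0.05 in the SSC pairs, -1.34 and -0.67 in the pBCSP pairs and -0.44 and -1.40 in the BCSP pairs. In the downstream pairs it was -2.51, -1.85 and -1.14 (lowest, median and highest), which overlapped with the stem and progenitor pairs. The difference was 1.05 ± 0.30 (SE, adjusted p = 0.037, edgeR). It was not called when the BCSP libraries were left out (adjusted p = 0.0828, edgeR) or under DESeq2 (adjusted p = 0.0512). The input of Psme3, which is the denominator of this ratio, was lower in stem and progenitor populations. Its IP level was not compared alone. At an unadjusted p under 0.05, 6 members were higher and 2 lower (9.2% and 6.53% of all genes), and the lowest p after Psme3 was that of Psmg4 (log2 difference -0.72, adjusted p = 0.0654, edgeR).

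Mettl3cko and WT were compared in each stem and progenitor population and over their mean. In single populations 0 members passed an adjusted p of 0.05, as did 0% of all genes (edgeR, 16100 genes in SSC, 16017 in pBCSP and 16322 in BCSP). DESeq2 called 1 member lower, where it called 1.67% of all genes lower in SSC, 0.585% in pBCSP and 1.36% in BCSP. At an unadjusted p under 0.05, SSC had 0 members higher and 8 lower (7.31% and 7.37% of all genes), pBCSP 2 and 1 (3.89% and 4.48%) and BCSP 1 and 3 (7.28% and 5.73%). At the threshold of the study (log2 change beyond 0.5 and unadjusted p under 0.05) SSC had 0 and 7 (6.96% and 7.07% of all genes), pBCSP 2 and 1 (3.88% and 4.48%) and BCSP 1 and 3 (7.22% and 5.72%). The 7 of 47 tested members that were lower in SSC are above the share of all genes.

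Over the mean of the 3 populations, 0 members were higher and 2 lower, where 3.75% of 18655 genes were higher and 2.72% lower. Psma8 had 3.19 and 2.86 CPM in WT and 0.566 and 0.677 CPM in Mettl3cko SSC. It had 4.97 and 5.36 CPM against 1.82 and 0.569 CPM in pBCSP, and 5.03 and 2.35 CPM against 1.21 and 1.19 CPM in BCSP. The WT and Mettl3cko libraries did not overlap in any of the 3 populations, and the mean log2 change was -1.999 ± 0.42 (adjusted p = 0.0168, edgeR). Without WT pBCSP input replicate 2 its adjusted p was 0.0546 (edgeR). Psmg1 had 23.98 and 22.1 CPM against 15.6 and 11.3 CPM in SSC, 16.7 and 19.5 CPM against 13.3 and 16.4 CPM in pBCSP, and 33.7 and 26.2 CPM against 16.6 and 11.7 CPM in BCSP. Each Mettl3cko library was below both WT libraries of its population, and the mean log2 change was -0.72 ± 0.17 (adjusted p = 0.027, edgeR). It was called in 5 of the 12 fits that each left out 1 library. Both genes were higher in stem and progenitor than in downstream WT populations, a comparison that shares the WT libraries. How many of all genes had no overlap between WT and Mettl3cko libraries in all 3 populations was not counted.

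Members further down did not pass. The cap subunit Psmd8 was at -0.51 (adjusted p = 0.0501, edgeR), Psma7 at -0.42 (0.063), Psmg2 at -0.51 (0.0648) and Psme3 at 0.65 (0.0957). DESeq2 called these 4 genes (adjusted p = 0.00808, 0.0145, 0.0194 and 0.0248). Of all genes DESeq2 called 7.76% higher and 6.24% lower, against 3.75% and 2.72% under edgeR. It also called the cap subunits Psmd11 and Psmd12 higher (adjusted p = 0.0417 and 0.0437), which were at 0.40 and 0.33 and not called by edgeR. Psmd7 and Psme2 were at 0.28 each. The catalytic subunits Psmb5, Psmb6 and Psmb7 were at -0.41, 0.15 and -0.11, and the inducible Psmb8, Psmb9 and Psmb10 at 0.30, -0.00 and -0.13. Leaving out 1 library moved these to between -0.003 and 1.35, -0.60 and 2.18, and -0.27 and 0.08, so they have no settled direction. Psme1, Psme4 and Psmd14 were at -0.28, 0.02 and -0.17. Psmb11 had 10 and 12 counts in WT SSC and 0 and 0 in Mettl3cko SSC. A test of the difference between the 3 populations called 0 members and 0% of all genes (edgeR), with 1 member at an unadjusted p under 0.05 (4.5% of all genes). This was Psme4, at 12.2 and 19.6 CPM in WT and 13.5 and 10.8 CPM in Mettl3cko SSC, 11.4 and 10.8 CPM against 24.7 and 21.8 CPM in pBCSP and 21.9 and 22.4 CPM against 14.6 and 14.3 CPM in BCSP. Its unadjusted p in the model fitted across all genes was 0.00291 (edgeR).

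**Figure D5:**
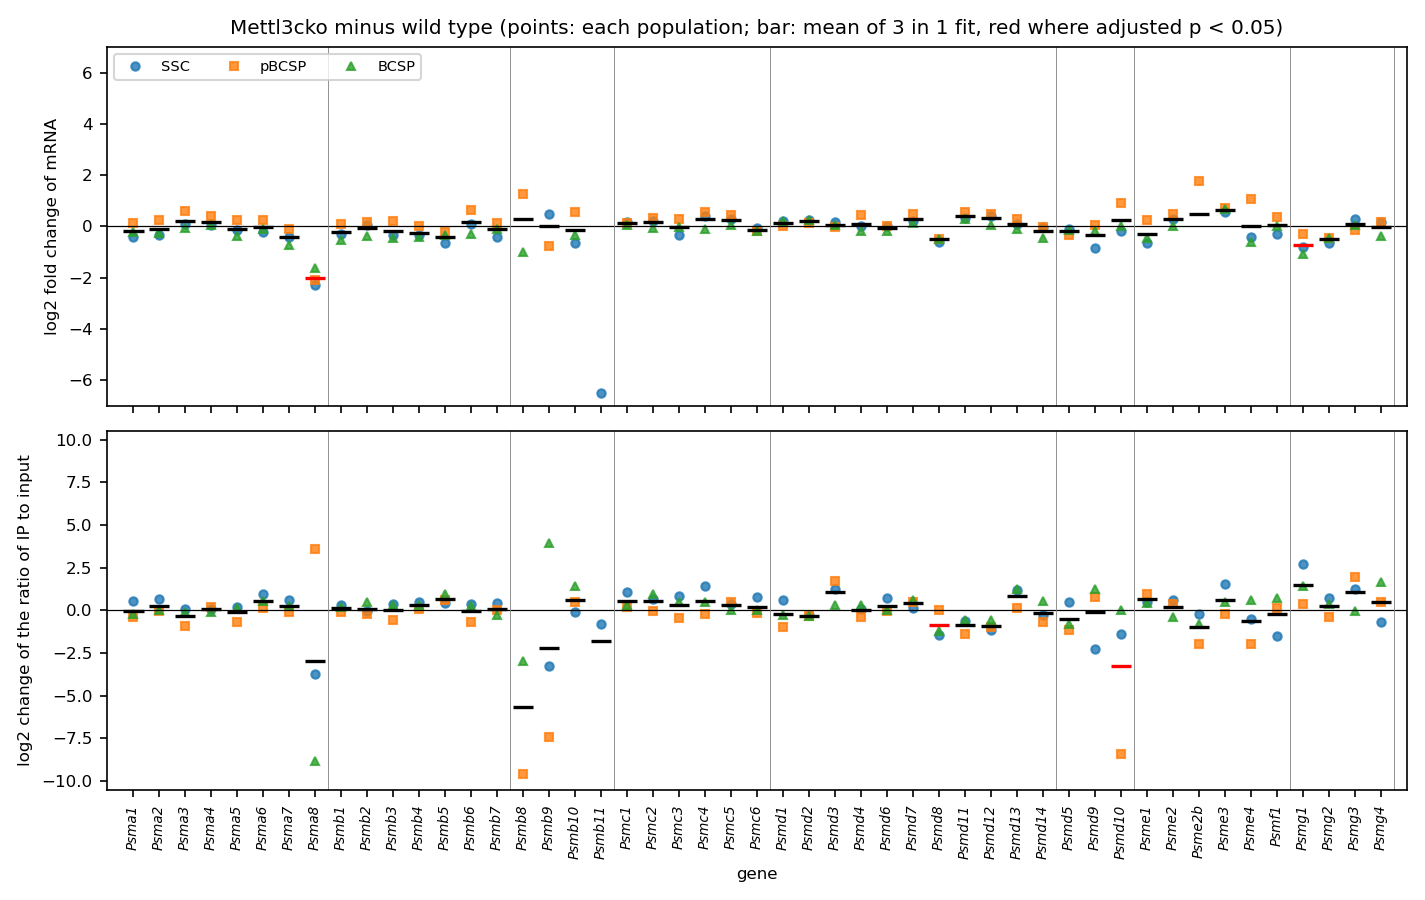
log2 change in Mettl3cko against WT (y axis) of the mRNA (upper panel) and of the ratio of IP to input (lower panel) for each proteasome gene (x axis), with points for SSC, pBCSP and BCSP and a bar for their mean in a joint fit, red where the adjusted p was under 0.05. Red bars stand at Psma8 and Psmg1 for mRNA and at Psmd8 and Psmd10 for the ratio. Points of Psmb11, Psma8, Psmb8, Psmb9 and Psmd10 beyond -3 rest on libraries at or near 0 counts, where the size depends on the prior count.

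Of the further proteasome and ubiquitin genes, 2 of 24 were higher in Mettl3cko and 1 lower, where 3.75% of all genes were higher and 2.72% lower. Nfe2l2 rose by 0.92 (adjusted p = 0.00739, edgeR) and Zfand5, which stimulates the proteasome, rose by 0.58 (adjusted p = 0.0164), while Rps27a fell by 0.50 (adjusted p = 0.04). Of the interferon and antigen presentation genes 2 of 12 were higher, H2-K1 at 0.80 and Tapbp at 0.49, and 0 were lower. The blood marker sum was 30.9 to 49.4 CPM in Mettl3cko and 15.7 to 25.2 CPM in WT input, and its part in these changes was not tested.

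The ratio of IP to input was compared between Mettl3cko and WT last. Its median over all genes was -0.39 on the log2 scale and over the members 0.08. In single populations 0 members and 0% of all genes passed an adjusted p of 0.05 (edgeR). At an unadjusted p under 0.05, SSC had 2 members higher and 1 lower (3.26% and 11.3% of all genes), pBCSP 1 and 5 (2.06% and 9.87%) and BCSP 1 and 2 (2.49% and 7.82%). DESeq2 called 1 higher and 2 lower over the 3 populations at an adjusted p. Of all genes it called 0.854% to 2.13% higher and 3.86% to 8.92% lower in these populations. Over their mean 0 members were higher and 2 lower, where 0.643% of 20360 genes were higher and 3.3% lower.

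Psmd10, which encodes the base chaperone gankyrin, had 0 and 6 IP counts in Mettl3cko pBCSP against 643 and 699 in WT pBCSP, although its Mettl3cko input held 1040 and 736 counts. In SSC the Mettl3cko IP libraries held 298 and 61 counts against 309 and 1012 in WT, and in BCSP 886 and 544 against 963 and 543. The low counts were thus those of pBCSP and of 1 SSC library, and the mean log2 change of -3.24 ± 0.78 (adjusted p = 0.0261, edgeR) rested on them. In pBCSP alone DESeq2 called Psmd10 (adjusted p = 1.82e-10) where edgeR did not. Psmd8 had log2 ratios of -1.58 and -1.46 in Mettl3cko SSC against -0.17 and 0.09 in WT, and of -1.36 and -1.15 in Mettl3cko BCSP against 0.04 and -0.19. In pBCSP it had 0.27 and 0.21 against -0.03 and 0.34, which overlapped, and the mean log2 change was -0.87 ± 0.24 (adjusted p = 0.0477, edgeR). With the replicate number as a block neither was called, at adjusted p = 0.0802 for Psmd10 and 0.0898 for Psmd8 (edgeR). Psma8 shows how thin the IP counts of weak members were, where the Mettl3cko libraries held 0 and 2 counts for SSC, 0 and 377 for pBCSP and 0 and 0 for BCSP.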

How the data were processed

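m6A IP and input RNA of sorted mouse skeletal populations were measured by SLIM-seq, an m6A IP of unfragmented RNA followed by amplified, transposase-cut, paired-end libraries that do not mark strand. The authors deposited raw read counts per gene. Per the labels, reads were trimmed with fastp 0.20.1, aligned with HISAT2 2.2.1 to GRCm38 (mm10) and counted with featureCounts 2.0.1. Because RNA was not fragmented, a count covers the whole transcript and gives no position of m6A, and pseudogene copies or overlapping genes can share reads. Here 128 entries under 2 names that no single gene owned (at most 0.390% of a library's counts) were left out, which left 46831 genes.

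Counts were tested with edgeR 4.0.16 (quasi-likelihood, TMM, filterByExpr, limma 3.58.1, R 4.3.3), with Benjamini-Hochberg adjustment over all genes tested and a threshold of 0.05. Input libraries were compared between stem and progenitor and downstream populations, between all 8 populations and between Mettl3cko and WT, and the ratio of IP to input by an interaction term. The log2 changes are those of edgeR, and log2 values of single libraries used a prior count of 2. RPKM is CPM per kilobase of the representative transcript (protein coding, APPRIS principal, then longest). Alternatives were DESeq2 1.42.0 and its size factors, library size alone, no filter, the replicate number as a block and leaving out libraries. The samples with the same number were checked for shared deviations and were not treated as pairs in the main tests. Ratios of single pairs of libraries match IP and input by that number for description. Two-sided tests were used throughout. The scripts were tested on simulated data, where the mean of IP against input made more false calls than its threshold allows. Comparisons of 2 libraries with 2, simulated for SSC, missed most changes of the smaller simulated size. Of the larger size, IP against input also missed most changes and Mettl3cko against WT missed many.

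The 49 members and all gene lists were chosen with earlier results of these data known. Every member was counted, and values were given for Psmb5 to Psmb10, Psme1 to Psme4, Psmd14 and up to 5 members with the lowest p on each side of a comparison, with up to 3 of the further genes. Genes, transcripts and overlaps are from GENCODE vM21, near-identical copies (95% identity over 200 bases) from BLAST 2.17.0 and promoters from RefSeq (GRCm38.p6).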

Additional observations from a re-analysis of the deposited data

Results flagged for a closer look

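Psme3, the gene of the activator PA28 gamma, was marked because its ratio of IP to input differed between stem and progenitor and downstream populations in a test of the difference itself. The log2 difference was 1.05 (adjusted p = 0.037, edgeR), from 6 stem and progenitor pairs of -1.40 to -0.05 and 10 downstream pairs of -2.51 to -1.14. It was the only member called, 1 of 49, where 3.06% of all genes were called higher. The call was lost under DESeq2 (adjusted p = 0.0512) and without the BCSP libraries (adjusted p = 0.0828, edgeR), and it was made in 20 of the 32 fits that each left out 1 library. Its input mRNA differed in the other direction, at -0.84. Input is the denominator of the ratio, so this is not a separate observation. Whether the IP level of Psme3 itself differed was not tested.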

How the results depend on the processing

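The counts of members above and below input in the mean of 8 populations stayed at 18 to 20 and 17 to 18 when each library was left out, and those higher and lower in stem and progenitor mRNA at 19 to 22 and 5 to 6, while library size alone, which moved the median of all genes from -0.11 to -0.21, gave 8 lower. With library size alone or the block Psmb3 was called lower. DESeq2 size factors moved the median of all genes from 0.004 to 0.13 for IP against input and from -0.08 to -0.24 for its difference between populations, with 14 core subunits above and 14 cap subunits below input as before. The test over all populations gave 10 to 23 members, with 10 to 13 without a BLSP, HEC or THY library or pBCSP replicate 1. Over single populations IP gave 58 to 74 members above and 53 to 71 below, and 34 to 42 and 37 to 45 at the threshold of the study. For the IP ratio of stem and progenitor against downstream, members higher and lower were 0 to 2 and 0 to 2 without a library. They were 0 higher under DESeq2, its size factors and without BCSP, a choice made after seeing the data, 3 higher with the block, 2 lower with DESeq2 size factors, 3 lower with DESeq2, and 1 lower with library size alone or no filter. Of all genes the block called 4.47% higher. DESeq2 called 6.19% lower, its size factors 2.48%, library size alone 1.9% and no filter 2.15%. Psme3 was not called there without 6C3 IP 1 or input 1, BCSP IP 1 or input 2, HEC input 2, PCP IP 2 or input 2, SSC IP 2 or input 2, THY IP 2 or input 2, or pBCSP input 2 (log2 0.69 to 0.93, adjusted p = 0.0533 to 0.125, edgeR).

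For Mettl3cko mRNA, leaving out a library gave 0 to 3 members higher and 0 to 5 lower over the mean, and 1 to 15 higher and 6 to 13 lower over single populations at the threshold of the study, where 15 came without Mettl3cko pBCSP replicate 2 and 6 without either WT SSC library. No adjusted call was made in single populations or in their difference (0 to 0) without a library, and DESeq2 gave 1 lower. At the threshold of the study no filter gave 7 and the block 5 higher. Over the mean DESeq2 gave 3 higher and 5 lower, no filter 1 and 4, the block 1 and 4, and library size alone 4 lower. Of all genes these called 7.76% and 6.24%, 4.18% and 3.75%, and 4.87% and 3.79%, with 2.63% lower for library size alone. Psmg1 was not called without Mettl3cko BCSP 2, SSC 2 or pBCSP 1 or WT BCSP 1, SSC 1, SSC 2 or pBCSP 2 (adjusted p = 0.0508 to 0.0876, edgeR). For the Mettl3cko IP ratio, leaving out a library gave 0 to 6 higher and 0 to 5 lower over single populations and 0 to 2 and 0 to 5 over the mean, the highest without Mettl3cko SSC IP 1. DESeq2 gave 1 higher and 2 lower over single populations and 1 and 4 over the mean, no filter 1 lower over single populations and the block 0 lower over the mean. Of all genes DESeq2 called 2.39% higher and 10.3% lower over the mean. No filter called 0.326% to 1.57% lower in single populations, and the block 0.55% lower over the mean. Psme1 in SSC, at 0.52 and not called, was at 1.48 without Mettl3cko SSC IP replicate 1 and reversed to -3.71 without replicate 2. Of the 24 libraries left out in turn, Psmd10 was called without 14 and Psmd8 without 4. Causes were not tested. Where a group was left with 1 library, it was assumed to vary like the others, and fits of more than 16 libraries kept the dispersion trend of the full fit.

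Replicate numbers were not taken as pairs in the main tests. The deviations of IP and input with the same number correlated at 0.0178 to 0.237 over 11 groups (median 0.0582), those of WT inputs of 2 populations at -0.184 to 0.117, and those of WT with Mettl3cko at -0.00328 to 0.0056. The study states that sorted cells were split between IP and RNA libraries without tying this to the numbers. Mettl3cko IP libraries were no shallower than WT IP libraries, and their replicates differed most (correlation across genes 0.497 to 0.579).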
